A study of Arabidopsis thaliana with 58 samples.

Results

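The sites described here are short stretches of promoter DNA at which an antibody against PICKLE (PKL) gave a peak in every library of 3 Arabidopsis thaliana mutants. They were chosen by measured values, the PKL peak calls of those mutants, so PKL peaks there are no finding. A stretch was kept if it lay on chromosomes 1 to 5 under a PKL peak in all 9 peak lists of jaw-5D, pifQ and hy5, and if it was 100 to 600 bp long. Its midpoint also had to lie 1 to 1000 bp upstream of a gene start, by strand, and within no gene span. This left 2385 sites of 6709 stretches common to the 9 lists. The 2385 sites have 2308 genes as their nearest downstream gene.

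Whole seedlings were 9 days old and had been grown in continuous white light, and the groups used here had 3 libraries each, described as biological replicates. Col-0 plants served as wild type (WT). The pkl mutant, whose allele the labels do not give, was the second genotype for the histone marks and the only one for RNA. PKL binding was mapped in WT, jaw-5D, pifQ and hy5 with an antibody against the plant's own PKL protein. jaw-5D belongs to the jaw-D lines, in which an overproduced microRNA lowers transcripts of several TCP factors, pifQ lacks the light-regulated factors PIF1, PIF3, PIF4 and PIF5, and hy5 lacks the light-signalling factor HY5. The histone marks H3K4me1, H3K4me2 and H3K4me3 were mapped in WT and pkl.

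PKL is a chromatin remodeler of the CHD3 family, an ATP-driven enzyme that moves nucleosomes, and pkl seedlings are known for keeping embryonic traits and for altered hypocotyl growth. Methylation of lysine 4 on histone H3 marks transcribed plant genes in layers. H3K4me3 sits just inside the start of active genes, H3K4me2 close behind it, and H3K4me1 over the gene body.

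The data are peak lists, 1 per library, so a value in bp is the length of DNA that the authors' peak caller marked as enriched, not an amount of signal. The mutant PKL lists held 11379 to 13979 peaks each, and the 3 WT PKL lists held 821, 632 and 2824 peaks. The WT lists end at a stricter q-value and name the chromosomes in another way, so list format and genotype cannot be told apart, and no test was made between the mutants and WT. The histone lists held 14395 to 21880 peaks, and they carry no read totals, so ChIP depth is not known. The RNA libraries of pkl summed to 17584037, 17300314 and 17656899 counts. In them the PKL transcript itself stood at 29.6, 31.9 and 33.9 TPM (a level scaled by transcript length and library total), so its RNA was detected in the mutant, and no WT level is used here. Leaf RNA was abundant, with the Rubisco small subunit gene RBCS1A at 23718 to 25333 TPM, and the root-hair gene EXPA7 at 15.7 to 22.4 TPM showed that root RNA was present, as whole seedlings would give.

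The sites were short and lay close to the gene start. Their median length was 299 bp, with quartiles of 231 and 390 bp. The midpoint lay a median of 256 bp upstream of the nearest start, with quartiles of 119 and 552 bp. In all, 1174 sites (49.2%) were centred 1 to 250 bp upstream, 530 (22.2%) farther out up to 500 bp, and 681 (28.6%) beyond that up to 1000 bp. Although every midpoint lay outside genes, 774 sites (32.5%) reached over the start of the downstream gene.

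**Figure D1:**
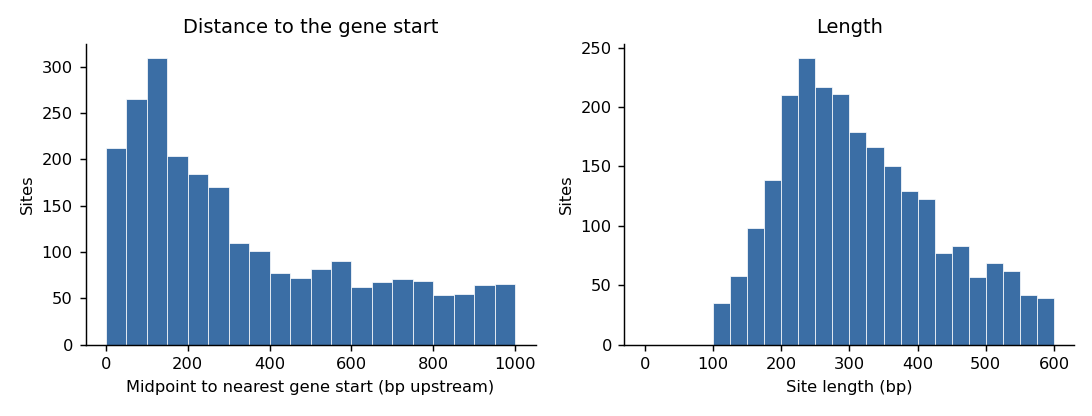
Numbers of sites by distance from the site midpoint to the nearest downstream gene start in bins of 50 bp (left) and by site length in bins of 25 bp (right). The fullest distance bin, just over 100 bp upstream, holds 309 sites, and the fullest length bin, just over 225 bp, holds 241 sites; both ranges were set by the rule that chose the sites.

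Most genes had a single site. The nearest downstream gene had 1 site in 2233 cases and 2 or 3 sites in 75. Some 354 sites lay upstream of more than 1 gene start, and 332 of these were between genes transcribed in opposite directions, so the gene named for such a site is only the nearer one. Sites were spread over the chromosomes, with 636, 364, 483, 365 and 537 on chromosomes 1 to 5. Sites that neighbour each other are not independent: 185 (7.76%) shared a peak with another site in at least 1 of the 9 lists, and 1 did so in all 9.

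The limits of the rule cut through a continuous range. At the upper length limit, the sites before AT1G55210 and AT4G28290 were 600 and 599 bp long and were kept, whereas the stretch before the heat shock factor gene HSFB2A, at 602 bp, was not. At the lower limit, the 102 bp site before the replication gene MCM9 was kept and the 98 bp stretch before the microRNA gene MIR168b was not. At the far limit of distance, the site centred 999 bp before MYB74 was kept and the stretch 1001 bp before AT2G42030 was not.

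PKL enrichment at the sites was moderate and similar in the 9 lists. Fold enrichment is the authors' value for a peak over its local background, and where several peaks met a site the highest was taken. It was part of what defined a peak, so it is given as a description only. The median fold over the 2385 sites was 3.07, 3.12 and 3.15 in the jaw-5D lists, 3.02, 3.01 and 3.03 in those of pifQ, and 2.92, 2.91 and 2.99 in those of hy5. All peaks of these lists had medians of 2.53 to 2.68. The lowest of the 9 values at a site had a median of 2.3 and ran from 1.49 to 8.54. Longer sites had higher folds (Spearman's rho of 0.53 between length and the lowest fold, across 2385 sites of the same libraries).

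The site with the highest lowest fold lay 307 bp before TPR3, which encodes a corepressor of the TOPLESS family (chr5:9515430-9515997, TAIR10, outside any gene). Its fold was 13.4, 13.0 and 12.2 in jaw-5D, 8.77, 11.4 and 12.6 for pifQ and 10.1, 8.54 and 11.1 for hy5. In WT it was under a peak in all 3 lists, with folds of 15.7, 13.3 and 9.63. The other 4 TOPLESS genes had no site.

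WRKY47, a WRKY transcription factor gene, followed, with folds of 11.7, 8.17 and 8.0 in jaw-5D, 10.1, 11.3 and 11.7 for pifQ and 8.54, 9.34 and 12.95 for hy5 (chr4:743897-744478). ACT7, a vegetative actin gene, had folds of 7.85 to 9.97 over the 9 lists, a narrow range (chr5:3051686-3052211). LAX1, which encodes an auxin influx carrier, had folds of 7.21 to 11.7 (chr5:97019-97497). Sites before these genes were also under peaks in all 3 WT lists.

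Genes of cellulose synthesis and inositol synthesis stood next. CESA1, a catalytic subunit of cellulose synthase in primary walls, had folds of 6.23 to 8.59, and CSI1, whose protein links cellulose synthase to microtubules, had folds of 6.49 to 9.42. MIPS1, the enzyme that makes inositol phosphate from glucose phosphate, had folds of 6.50 to 7.92. All 3 genes had WT peaks in 3 of 3 lists. The top 10 closed with ROPGEF1, an activator of ROP GTPases, at 5.43 to 7.35, RRF, a ribosome recycling factor, at 5.34 to 8.99, and JAZ3, a repressor of jasmonate responses, at 5.29 to 6.05, and these had WT peaks in 1, 2 and 2 lists.

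**Figure D2:**
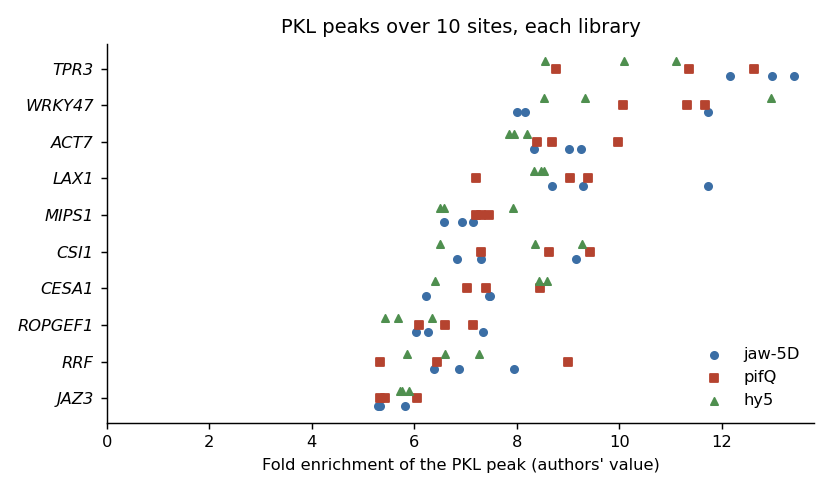
Fold enrichment of the PKL peak (authors' value, linear axis from 0) over the 10 sites with the highest lowest value of the 9 lists, 1 point per library, named by the nearest downstream gene. Libraries of jaw-5D, pifQ and hy5 mix at most genes, and the points run from 5.29 at JAZ3 to 13.4 at TPR3.

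At some sites, single libraries or 1 genotype had higher folds, and 3 such sites are given here as examples. The site before WRKY22, a defence-related WRKY gene, had folds of 2.35 to 3.86 in 8 lists and 17.4 in pifQ replicate 3. The site before MIR396b, a microRNA gene, had 2.09 to 3.11 in 8 lists and 7.80 in hy5 replicate 3. The site before HY5 itself had 3.09, 2.43 and 2.38 in jaw-5D, 2.56, 2.02 and 2.26 for pifQ and 6.13, 5.43 and 6.01 for hy5 (chr5:3595068-3595320, 202 bp upstream). At HY5 the 3 hy5 values were above all 6 others. These 3 sites were picked after their values were seen, and no difference in fold between lists was tested.

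WT seedlings shared a minority of the sites in their shorter lists. A site counted as under a WT peak when at least 1 bp was shared. WT replicates 1, 2 and 3 had a peak over 197 (8.26%), 154 (6.46%) and 683 (28.6%) of the 2385 sites. Seen from the WT lists, 24.0%, 24.4% and 24.1% of their peaks lay over a site, so the WT lists differed in length much more than in this share. At least 2 of 3 WT lists held a peak at 211 sites, which is 8.85% (95% Wilson interval 7.77 to 10.1%, counting error only). All 3 held one at 73 sites, and none did at 1635. Replicate 3 carried many of these peaks: 477 sites were under a peak in that list alone, and without it 78 sites stayed under a peak in both remaining lists.

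Sites also found in WT were the longer and stronger ones in the mutants. Sharing any base with a WT peak was enough to count, which longer sites meet more easily. The 211 sites had a median length of 452 bp and a median lowest fold of 3.28, against 267 bp and 2.17 at the 1635 sites with no WT peak. Of the 555 sites 400 to 600 bp long, 25.05% had WT peaks in at least 2 lists, and of the 324 sites shorter than 200 bp, 0.617% had. Promoter stretches longer than 600 bp, which the rule left out, had them in 111 of 273 cases (40.7%, 35.0 to 46.6%). Narrow stretches inside genes had them in 78 of 1372 cases (5.69%, 4.58 to 7.04%), and narrow stretches with no start within 1000 bp in 220 of 1823 (12.1%, 10.7 to 13.6%).

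Few of the sites were covered by H3K4 marks, as the rule placed every midpoint outside gene spans. None of the 2385 sites touched an H3K4me1 peak in any of the 6 libraries of WT and pkl. In WT, 2045 sites (85.7%) were clear of H3K4me2 and 1643 (68.9%) were clear of H3K4me3 in all 3 libraries. Peaks covering at least 50% of the site in all 3 WT libraries were found at 5 sites for H3K4me2 and at 40 for H3K4me3. Narrow PKL stretches inside genes had such cover in 194 of 1372 cases (14.1%) for H3K4me2 and in 433 (31.6%) for H3K4me3. Narrow stretches outside genes with no start within 1000 bp were the clearest of these 3 classes, with 1805 of 1823 (99.01%) clear of H3K4me2 and 1779 (97.6%) clear of H3K4me3 in all 3 WT libraries.

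The share of sites touched by a mark was alike in pkl. For H3K4me2 it was 11.5%, 9.69% and 10.1% in WT (10.5% ± 0.960, SD, n = 3) and 11.2%, 12.2% and 11.7% in pkl (11.7% ± 0.504, SD, n = 3), so the groups overlapped. For H3K4me3 it was 29.3%, 27.3% and 26.3% in WT (27.6% ± 1.52) and 28.2%, 29.8% and 28.4% in pkl (28.8% ± 0.875), which also overlapped. No test was made on these shares.

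The genes downstream carried H3K4me3 and H3K4me2 just inside their start, and H3K4me1 farther in. Among the protein-coding ones in WT, cover by H3K4me3 peaks was highest in the 100 bp bin centred 350 bp into the gene, at 83.8% ± 0.533 of the DNA (SD, n = 3 libraries), and H3K4me2 peaked at 550 bp with 70.6% ± 2.06. H3K4me1 followed at 1350 bp with 47.1% ± 0.591. Other protein-coding genes had lower maxima, of 54.1% for H3K4me3 at 250 bp, 51.7% for H3K4me2 at 450 bp and 39.4% for H3K4me1 at 1050 bp. Nearer the start, H3K4me1 was lower in the downstream genes than in the others. Its cover was 6.66% against 11.3% at 550 bp and 25.6% against 30.2% at 750 bp. The rule bears on the DNA upstream, since a downstream gene had to have a stretch there with its midpoint in no gene span, and the other genes did not. At 250 bp upstream of the start the downstream genes had the lower cover, with H3K4me3 over 2.55% of the DNA before the downstream genes and 6.94% before the others, and H3K4me2 over 1.39% and 4.45%.

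**Figure D3:**
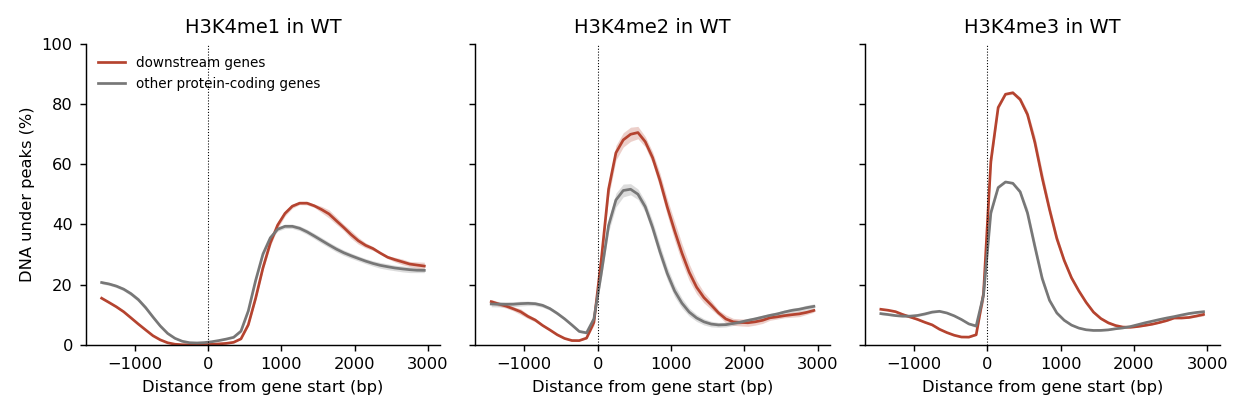
Percentage of DNA under H3K4me1, H3K4me2 and H3K4me3 peaks in WT, in 100 bp bins by distance from the gene start, for protein-coding genes downstream of a site (red) and all other protein-coding genes (grey), with lines for the mean and bands for the SD of 3 libraries. Inside the gene the red line is the higher one at its maximum in all 3 marks (83.8% for H3K4me3), and at 250 bp upstream, where the rule that chose the sites asks for DNA outside genes, it is the lower one. For H3K4me1 the red line is also the lower one inside the gene up to the bin at 850 bp.

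Most downstream genes were marked, where a gene counts as marked with at least 150 bp under peaks in each of the 3 WT libraries. H3K4me1 marked 1167 of the 2308 genes (50.6%), H3K4me2 1839 (79.7%) and H3K4me3 1905 (82.5%). Over all 33331 nuclear genes the shares were 36.2%, 51.3% and 48.2%, and over all protein-coding genes 44.2%, 62.2% and 58.5%. All 3 marks were present on 1008 downstream genes (43.7%, against 29.6% of nuclear genes), and H3K4me2 with H3K4me3 but not H3K4me1 on 695 (30.1% against 12.6%). No mark was called on 252 (10.9% against 41.3%). Over all protein-coding genes these 3 shares were nearer, at 36.3%, 15.1% and 29.2%. In pkl the shares of downstream genes marked were 50.6%, 80.8% and 82.7%.

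The class of gene downstream was mostly protein-coding, with 2171 of 2308 genes. These are 8.13% of the 26710 protein-coding genes in the table, and the sites had 6.92% of all nuclear genes downstream. Transfer RNA genes contributed 38 of 623 (6.10%), and long non-coding RNA genes 18 of 224 (8.04%). Transcribed pseudogenes were downstream in 9 of 926 cases (0.972%), and genes that the RefSeq table does not hold in 49 of 4399 (1.11%).

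Of 178 microRNA genes, 9 were downstream of a site (5.06%, against 6.92% of nuclear genes), and those described here were picked after their values were seen. MIR167a and MIR167d make miR167, which targets the auxin response factor transcripts ARF6 and ARF8. These 4 genes were picked for having a site, so their sites are no finding about the group. No other MIR167 gene was among the 9, and 5 of 23 genes with ARF symbols (21.7%) were downstream. The site before MIR167a was 557 bp long, 107 bp upstream of the start, and had folds of 3.45 to 5.26 in the mutants. The site before ARF8 had folds of 3.04 to 5.84, and that before ARF6 of 3.31 to 4.63. TAS3, the source of small RNAs against other auxin response factors, had a site with folds of 3.25 to 5.07.

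RNA levels of these genes differed widely. ARF6 stood at 17.8, 18.03 and 20.1 TPM in pkl, ARF8 at 20.5, 21.6 and 21.4 TPM, and TAS3 at 17.7, 17.1 and 21.5 TPM. MIR163 stood at 13.8, 14.0 and 14.1 TPM, MIR167a at 0.509, 1.56 and 1.02 TPM, and MIR396b at 0, 0.581 and 0 TPM. The libraries were made from poly(A) RNA, so these are levels of precursor transcripts, and mature microRNAs were not measured. The remaining microRNA genes with a site were MIR166d, MIR168a, MIR405a, MIR822 and MIR858a.

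Photoreceptors and their partners were frequent downstream, but so were listed photosynthesis genes (4 of 9, 44.4%) and housekeeping genes (3 of 9, 33.3%). A high share was thus not particular to light genes or to the clock and elongation genes below. Over all protein-coding genes the share was 8.13%. Of the 29 genes in a list of light signalling and HY5-linked genes, 15 were downstream of a site (51.7%, against 6.92% of nuclear genes; the lists are short and were drawn up with earlier results at hand). They include the phytochrome genes PHYA and PHYB, the cryptochrome genes CRY1 and CRY2, and COP1, SPA1 and SPA3, whose proteins act together in degrading HY5 in darkness. PHYB had folds of 5.32, 4.99 and 4.0 in jaw-5D, 3.64, 3.37 and 2.97 for pifQ and 4.58, 4.20 and 3.49 for hy5, and WT peaks in 2 of 3 lists (chr2:8139440-8139809). CRY2 had folds of 3.17 to 3.92, PHYA had 2.02 to 2.53 and CRY1 had 1.93 to 3.45, and these 3 had no WT peak. The rest of the list with a site comprised HY5, the B-box factor genes STO, STH and BBX29, ELIP1, F3H, GUN5 and RUP1.

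All of these photoreceptor genes were expressed in pkl. CRY2 stood at 66.4, 67.9 and 73.1 TPM, CRY1 at 69.7, 70.7 and 63.0 TPM, PHYB at 32.8, 33.6 and 33.4 TPM and PHYA at 25.2, 28.8 and 30.1 TPM. In these values of whole seedlings, fewer cells of a type and less RNA per cell cannot be told apart. H3K4me3 covered 1086, 1032 and 1064 bp of PHYB in WT and 1058, 1082 and 1111 bp in pkl, so the groups overlapped. Of the 15 listed genes, 14 carried H3K4me3 in all 3 WT libraries and 8 carried H3K4me1.

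Clock genes were downstream in 9 of 21 cases (42.9%). CCA1 and LHY are the morning Myb factors at the core of the clock, and RVE1, RVE2 and RVE8 are their relatives. GI and ZTL act together in protein turnover in the evening, ELF3 is part of the evening complex, and AT3G54500 (LNK2) is a coactivator of RVE8. GI had 2 sites. The distal one, 940 bp upstream, was 542 bp long with folds of 4.08 to 7.16 and WT peaks in 2 lists, and the proximal one, 71 bp upstream, was 226 bp long with folds of 2.32 to 3.48 and no WT peak (chr1:8060633-8061174 and chr1:8061660-8061885). CCA1 had folds of 3.30 to 5.02, and LHY had 2.13 to 3.29 at a site of 103 bp, close to the lower length limit.

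Clock genes ranged from RVE2 at 126, 124 and 132 TPM and LHY at 91.1, 86.3 and 73.5 TPM to GI at 8.66, 8.13 and 10.5 TPM, with a median of 47.7 TPM over the 9. Seedlings grew in continuous light, so these levels are not tied to a time of day by the labels. H3K4me3 marked 9 of 9, and H3K4me1 and H3K4me2 marked 8 each, in all 3 WT libraries. H3K4me1 covered 4608, 4766 and 4620 bp of GI in WT and 4344, 3916 and 4828 bp in pkl.

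Genes of elongation and of auxin response had sites as well. Of 22 genes linked to PIF factors and elongation, 8 were downstream (36.4%), and of 16 Aux/IAA and ARF genes in a list for auxin, 4 were (25%). WT peaks in at least 2 lists were found at 2 of those 8 and at 3 of those 4 genes. The Aux/IAA repressor genes among them are IAA2, IAA19, SHY2 and ATAUX2-11. IAA2 had folds of 3.83 to 6.23 and WT peaks in 3 of 3 lists (chr3:8181560-8182136, 48 bp upstream), and IAA19 had 2.82 to 4.46 and WT peaks in 2. PRE1, a small helix-loop-helix protein that promotes elongation, had folds of 3.41 to 6.54 and WT peaks in 2 lists. The other genes were PAR1 and PAR2, negative regulators in shade avoidance, the homeodomain genes HAT2 and HAT3, CKX5, a cytokinin oxidase, and PIF7, a factor that is intact in pifQ.

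IAA2 was the highest of these in RNA, with 64.2, 73.7 and 77.1 TPM. IAA19 stood at 3.32, 4.20 and 3.73 TPM, and PRE1 was near 0, at 0.109, 0.558 and 0.219 TPM. SAUR63, an auxin-induced growth gene, had folds of 3.03 to 6.31, WT peaks in 3 of 3 lists and 8.4, 10.4 and 7.16 TPM, but no H3K4 peak over the gene in any of the 18 histone libraries. It is 1 of 5 SAUR genes downstream, of 16 in the table under that name.

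Leaf-growth genes with a site were LOX2, a chloroplast lipoxygenase of jasmonate synthesis, AN3, a coactivator of leaf cell proliferation, and the TCP genes PTF1 and AT5G08330, together 4 of 12 listed. LOX2 had folds of 2.93, 5.63 and 4.0 in jaw-5D, 5.86, 5.81 and 5.37 for pifQ and 5.25, 4.09 and 6.77 for hy5. It was strongly expressed, at 603, 633 and 685 TPM, and AN3 stood at 11.9, 9.68 and 11.2 TPM. Cyclin D genes, which drive entry into the cell cycle, were downstream in 3 of 10 cases (CYCD1;1, CYCD3;1 and CYCD3;2). Lists of 6 chromatin remodeler genes and 7 PRC2 genes, the complex that sets H3K27me3, had no member downstream of a site. With 6.92% of nuclear genes downstream, lists this short can easily have none, so this is no result about them.

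Shares of transcription factor families were counted by gene symbol. Of those in RefSeq, 11 of 67 WRKY genes (16.4%), 13 of 123 MYB genes (10.6%), 13 of 84 NAC genes (15.5%), 10 of 55 ERF and DREB genes (18.2%), 7 of 25 BBX genes (28.0%) and 9 of 47 genes with HB or HAT symbols of the homeobox class (19.1%) were downstream. Response regulators of cytokinin signalling had 2 of 24 (8.33%) and ribosomal protein genes 4 of 44 (9.09%). The ERF and DREB group includes the neighbouring cold-response genes CBF2 and DREB1A. Their sites had folds of 3.07 to 4.77 and 2.58 to 4.01, and the genes were near the floor of expression, CBF2 at 0.568, 0.581 and 0.571 TPM and DREB1A at 0.338, 0.345 and 0.932 TPM, while H3K4me2 covered 617 to 802 bp of CBF2 in WT.

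Photosynthesis genes had the highest RNA levels among downstream genes with a RefSeq symbol. CAB1, which encodes a chlorophyll-binding protein of the light-harvesting antenna, stood at 16360, 15700 and 15341 TPM. RBCS3B, a Rubisco small subunit gene, stood at 10356, 9980 and 9906 TPM, and its neighbour RBCS2B at 7464, 7476 and 6936 TPM. RBCS genes and light-harvesting genes are close copies of each other, so the authors' counting could have split their reads. LHB1B2 at 4035 to 4304 TPM and PSBO1, a subunit of the oxygen-evolving complex, at 3609 to 4004 TPM followed.

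PKL peaks at these highly expressed genes had moderate folds. The site before CAB1 lay 27 bp upstream of the start and had folds of 2.48, 2.1 and 2.33 in jaw-5D, 3.55, 4.42 and 4.60 for pifQ and 2.97, 2.26 and 2.22 for hy5. All pifQ values at CAB1 were above those of jaw-5D and hy5, a difference that was not tested. The site before RBCS3B had folds of 3.06 to 5.53, and it had no WT peak. H3K4me3 covered 289, 285 and 456 bp of CAB1 in WT and 439, 452 and 266 bp in pkl, and neither H3K4me1 nor H3K4me2 was called on CAB1 or RBCS3B in any library. Photosystem antenna genes LHCA2, LHCA4 and LHCB5 also had sites.

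At the other end, 128 downstream genes (5.55%, against 27.2% of nuclear genes) were listed at 0 TPM in all 3 libraries. Only 49 of them were protein-coding, which is 2.26% of the protein-coding downstream genes, against 14.3% of all protein-coding genes. APETALA1 (AP1), a floral identity gene that is silent in seedlings, had a site 64 bp upstream of its start with folds of 4.0, 4.42 and 7.57 in jaw-5D, 6.29, 6.87 and 6.94 for pifQ and 4.25, 5.65 and 4.87 for hy5 (chr1:25986129-25986624). WT had a peak there in 3 of 3 lists, with folds of 4.84, 4.80 and 4.15. AP1 carried no H3K4 peak in any of the 18 histone libraries. CYP704B1, a cytochrome P450 of pollen wall synthesis, and MIR166d were also listed at 0 TPM, with folds of 2.70 to 4.16 and 3.12 to 4.45, and without H3K4 peaks.

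As a group the downstream genes were expressed at higher levels than the table at large. Their median was 16.8 TPM, with library medians of 16.48, 16.75 and 16.99. Protein-coding downstream genes had a median of 18.02 TPM, against 7.31 TPM for all protein-coding genes. At least 1 TPM was reached by 2081 downstream genes (90.2%, against 59.6% of nuclear genes), and at least 100 TPM by 246 (10.7% against 4.92%). They made up 17.3% of all nuclear TPM. Genes and sites were described here without a test, since genes are not replicates, and no RNA comparison with another genotype was made.

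**Figure D4:**
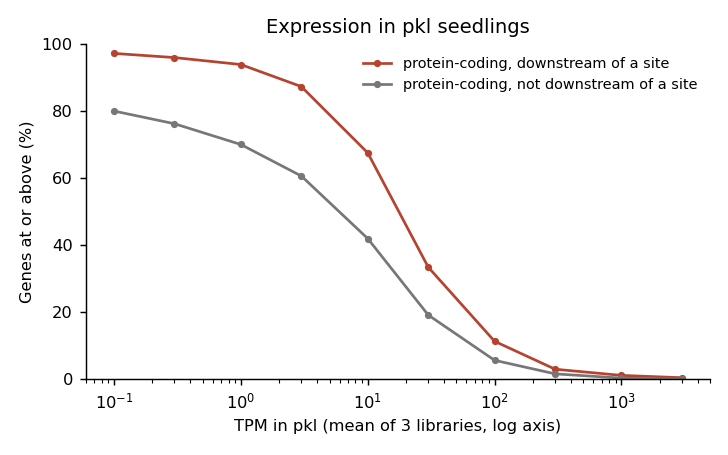
Percentage of protein-coding genes at or above a given RNA level (TPM, mean of 3 pkl libraries, log axis) for genes downstream of a site (red) and all others (grey). At 10 TPM the shares are 67.5% and 42.0%, and at 100 TPM they are 11.3% and 5.61%.

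Level and position were linked only loosely. Genes whose site was centred 1 to 250 bp upstream had a median of 19.4 TPM, those farther out up to 500 bp 14.2 TPM and those beyond 13.2 TPM (rho of -0.12 between distance and TPM across 2308 genes). The lowest fold of the site and TPM had a rho of -0.03. Genes with WT peaks in at least 2 lists had a median of 14.9 TPM, and those with none 17.3 TPM. By marks in WT, the 90 genes with H3K4me3 alone had the highest median, 77.9 TPM, the 1008 genes with all 3 marks had 19.8 TPM, and the 252 genes with none had 0.018 TPM.

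Few downstream genes had longer or shorter H3K4 peaks in pkl than in WT. Each gene with at least 150 bp under peaks in 3 or more of 6 libraries was tested with limma on log2 of its bp plus 100, across the whole genome, calling a change at a Benjamini-Hochberg adjusted p under 0.05. Of 1265 downstream genes tested for H3K4me1, 6 were longer in pkl (0.474%, where 0.549% of all 13480 genes tested were) and 2 were shorter (0.158%, where 0.148% were). For H3K4me2, 11 of 1980 were longer (0.556%, background 0.948%) and 5 shorter (0.253%, background 0.634%). For H3K4me3, 20 of 1954 were longer (1.02%, background 1.14%) and 6 shorter (0.307%, background 0.387%). The shares were at or below the background except for the 2 genes shorter in H3K4me1, which lay close to it, so these counts are no result about the sites. The median log2 difference between pkl and WT was 0.03, -0.07 (centred) and 0.03 over the downstream genes tested for the 3 marks, and 0.04, -0.04 and 0.03 over all genes tested. An unadjusted p under 0.05 was reached by 5.69%, 14.2% and 14.3% of the downstream genes, and by 7.5%, 13.96% and 13.4% of all.

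The calls at these genes were mostly peaks present in one genotype and absent from the other. They comprise 50 calls in 49 genes, and the 3 WT and 3 pkl values did not overlap in any of them. Genes were called by a difference between these same values, so this lack of overlap is no further finding. In 32 calls every library of one genotype was at 0 bp, and there the size of the log2 value is set by the 100 bp that were added, so the bp are given. These 32 calls passed the filter only through the genotype with the peaks. A group at 0 bp throughout has no spread, so the adjusted p-values of such genes below record the call and are not support for a change. A WT PKL peak in at least 2 lists was found at 3 of the 49 genes, where 8.85% of all sites had one, so this count is no result about the called genes. None of the genes in the lists of light, clock, elongation, leaf, auxin, photosynthesis or housekeeping genes with a site was called in any mark, and none of the transcription factor genes counted above by symbol. That count took homeobox genes only under HB and HAT symbols. Over all genes tested, 0.148% to 1.14% were called per mark and direction, so lists of this size would hold few calls in any case. The absence of calls is no result about the listed genes.

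H3K4me1 gave 3 named calls. CuAO1, a copper amine oxidase that breaks down polyamines, had 0 bp in each WT library and 802, 838 and 591 bp in pkl (adjusted p = 0.00144, limma). PIP1A, a water channel of the plasma membrane, had 0 bp in each WT library and 503, 397 and 289 bp in pkl (adjusted p = 0.00734, limma; 0.0539 without WT replicate 2 and 0.0540 without pkl replicate 2). In the other direction, the homeodomain gene RPL had 511, 372 and 417 bp in WT and 0 bp in each pkl library (adjusted p = 0.00144, limma).

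H3K4me2 was longer in pkl over 5 named genes. SSI2, a fatty acid desaturase of the chloroplast, had 0 bp in WT and 600, 697 and 846 bp in pkl (adjusted p = 0.000507, limma). GPX1, a glutathione peroxidase, had 0 bp in WT and 605, 531 and 327 bp in pkl, and BZO2H3, a bZIP factor, had 0 bp in WT and 777, 383 and 1021 bp in pkl. GSL8, a callose synthase, had 956, 856 and 989 bp in WT and 1706, 2153 and 2341 bp in pkl, a centred log2 difference of 0.90 ± 0.11 (SE). NHX1, a vacuolar sodium and proton exchanger, had 587, 584 and 611 bp in WT and 1301, 1208 and 1235 bp in pkl (0.80 ± 0.10).

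H3K4me2 was shorter in pkl at SARD1, an activator of salicylic acid synthesis, with 398, 369 and 276 bp in WT and 0 bp in pkl, and at MIF3, a mini zinc finger gene, with 246, 234 and 209 bp in WT and 0 bp in pkl. The calls for NHX1, GSL8 and BZO2H3 rest on all or nearly all libraries. Leaving out any of the 6 libraries took the adjusted p of NHX1 to 0.0552 to 0.105, and leaving out any but pkl replicate 1 took that of GSL8 to 0.0681 to 0.0910 (0.573 when only peaks of −log10 q of 10 or more were counted). Leaving out any WT library or pkl replicate 1 took that of BZO2H3 to 0.0680 to 0.0818.

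H3K4me3 gave the most calls. Genes with a symbol were named by size of log2 difference, and the longer ones named here were all at 0 bp in WT. Other longer calls had peaks in both genotypes, with log2 differences from 0.18 at MCM9 to 0.84 at CYP83B1. LSH7, a gene of the light-dependent short hypocotyl family, had 0 bp in WT and 479, 517 and 499 bp in pkl. MBD11, a methyl-CpG-binding domain protein, had 0 bp in WT and 361, 351 and 367 bp in pkl, WNK7, a protein kinase gene, had 433, 451 and 271 bp in pkl against 0 bp, and BRXL1, a BREVIS RADIX relative, had 240, 229 and 236 bp against 0 bp. RFL1, a gene of the disease-resistance receptor type, had 0 bp in WT and 244, 318 and 254 bp in pkl (adjusted p = 0.106, limma, once 1000 bp upstream were included). AT2G42360 was the single gene called in 2 marks. H3K4me1 covered 0, 0 and 34 bp of it in WT and 288, 558 and 515 bp in pkl. H3K4me3 covered 0 bp in WT and 498, 518 and 262 bp in pkl. Every WT value was below the minimum length of the filter, so both calls passed it only through pkl. The gene was named after its values were seen, so its calls in 2 marks are no support for a change.

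H3K4me3 was shorter in pkl at EXPA8, an expansin that loosens cell walls, with 1081, 1087 and 892 bp in WT and 345, 332 and 344 bp in pkl (log2 difference -1.34 ± 0.08, SE, adjusted p = 0.00109, limma). ABCB14, an ABC transporter, had 455, 263 and 259 bp in WT and 0 bp in pkl (adjusted p = 0.00717, limma; 0.0503 without pkl replicate 1 and 0.0525 without pkl replicate 2). NSN1, a nucleolar GTPase, had 1109, 953 and 970 bp in WT and 695, 668 and 705 bp in pkl (-0.49 ± 0.06, adjusted p = 0.0289, limma). The NSN1 call was lost when any library other than WT replicate 1 was left out (adjusted p 0.0601 to 0.140), and also with 1000 bp upstream included (0.114) or with stricter peaks (0.981).

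**Figure D5:**
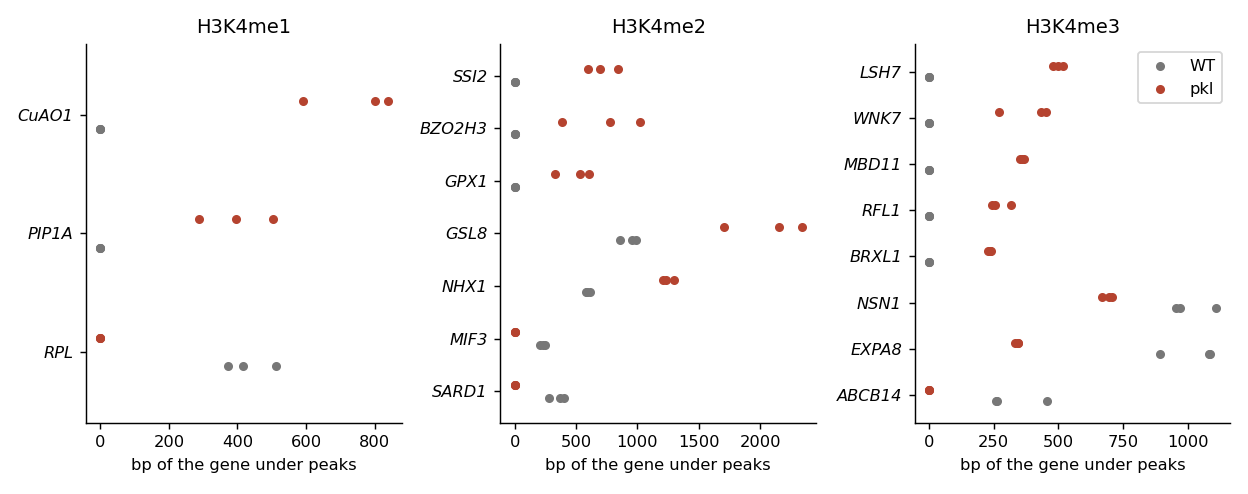
Length of each named gene under H3K4me1, H3K4me2 and H3K4me3 peaks (bp), 1 point per library, for WT (grey) and pkl (red), at the genes downstream of a site that passed the test and were named by the rule. The groups of 3 points do not overlap at any gene, which the choice of called genes all but ensures. Most genes sit at 0 bp in one genotype, as LSH7 does in WT and SARD1 in pkl.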

How the data were processed

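The members, gene lists and tests were chosen with earlier results of these data known. The submitters' processing notes name the peak caller MACS2 2.2.5, the aligners Bowtie2 2.3.3 and HISAT2 2.1.0, fastp, SAMtools 1.6, deepTools and the TAIR10 build, with no role or order. The deposited peak lists give a score, a fold enrichment (ratio) at the summit, −log10 p and −log10 q per peak, all the authors' values. The control behind a peak is not given in the sources used here. The authors' gene table gives raw counts and exon lengths. The table deposited as FPKM behaves as TPM: its columns sum to 999954 to 999956, so its values are called TPM here. It holds, with the count table, 6 columns that match no sample and were not used.

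Gene positions came from the count table (33610 genes, 279 organelle genes left out), and symbols and types from RefSeq (TAIR10.1), which matched 28932 of 33331 nuclear genes and 2259 of the 2308 downstream genes. Sites were computed by interval intersection in Python 3.11.15. limma 3.58.1 (R 4.3.3) was fitted to the 3 WT and 3 pkl libraries of each mark. H3K4me2 was centred by each library's median over genes marked in all 6 libraries, which removed a shift of 0.16 (log2), and the other marks, with shifts of 0.05 and 0.04, were not centred. The script was tested on simulated data.

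Named genes needed a RefSeq symbol. They were those of the 10 sites with the highest lowest fold, the top 5 with WT peaks in 3 of 3 lists, up to 5 called per mark and direction by log2 difference, the 5 highest in TPM, up to 3 at 0 TPM, listed genes, and sites nearest the limits. WRKY22, MIR396b, MIR163, MIR167a, MIR167d, TAS3, ARF6, ARF8, SAUR63, CBF2, DREB1A, AT2G42360, CYP83B1, the LHCA and LHCB genes and the cyclins were named after their values were seen. A planned motif search was not run, since it needs genome sequence. Alternatives covered the bp threshold, the window, the added bp, centring, stricter peaks, the replicate block and leaving out each library.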

Additional observations from a re-analysis of the deposited data

How the results depend on the processing

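Restricting peaks to −log10 q of 10 or more left 447 sites, and leaving out 1 mutant library gave 2404 to 2466. In WT, the 211 sites became 750 with 1 list enough, 73 with all 3 lists, 20 with such stricter peaks, and 78 to 150 with 1 WT library left out (129 without replicate 1 and 78 without replicate 3). Asking for at least 50% of the site under the WT peak left 171 of the 211. With WT replicate 3 cut to the mean number of peaks of the other 2 lists, an alternative chosen after seeing the data, 121 were left. The median TPM was 16 over every gene start within 1000 bp, 19.5 over genes of at least 1 TPM, 18.02 over protein-coding genes and 16.66 to 16.97 without 1 library. Marked shares in WT with stricter peaks were 14.4%, 27.8% and 76.5% for H3K4me1, H3K4me2 and H3K4me3. Over protein-coding genes they were 53.2%, 83.6% and 86.3%, the H3K4me3 share was 82.8% at a 50 bp minimum, and without 1 WT library they were 51.1% to 52.1%, 80.6% to 81.6% and 82.9% to 83.0%.

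Counts of called genes in pkl against WT depended on single libraries. Without 1 library, H3K4me1 gave 2 to 6 longer and 1 to 3 shorter, H3K4me2 6 to 12 and 5 to 12, and H3K4me3 12 to 22 and 4 to 7. The lowest came without pkl replicate 2 for H3K4me1 (2 longer, 1 shorter) and H3K4me3 (12 longer), and without pkl replicate 3 for H3K4me2 (6 longer). H3K4me1 gave 3 longer and 1 shorter without WT replicate 2, and H3K4me2 gave 7 longer and 12 shorter without pkl replicate 2. With stricter peaks the counts were 21 longer and 1 shorter for H3K4me1 and 46 longer for H3K4me2, and without centring H3K4me2 had 17 longer. The cause of these shifts was not tested.

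With the replicate number as a block, H3K4me1 had 0 longer and 0 shorter, H3K4me2 2 longer, and H3K4me3 11 longer and 3 shorter. Same-numbered WT and pkl libraries deviated together with correlations of -0.088 to 0.081. For H3K4me1, H3K4me2 and H3K4me3, 1, 0 and 2 of 3 WT libraries were closest to their own number. No clear pairing by number was seen, but 3 pairs per mark are too few to settle whether same-numbered libraries were prepared together. Of the 18 called genes named by the rule, 8 passed under every alternative that could be run, and 9 lost their call under the block. Of those 8, all but EXPA8 were at 0 bp throughout one genotype and could not be tested with stricter peaks. With no spread in that genotype, their passing is no support for a change. NSN1 changed sign with stricter peaks (log2 difference 0.00364, adjusted p = 0.981, limma), and 15 named genes could not be tested with stricter peaks, where too few libraries were marked. With 1000 bp upstream included, NSN1 (adjusted p = 0.114, limma) and RFL1 (0.106) were lost. Peak lists carry no depth, so an absent peak may be a peak below the caller's threshold.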
